A study of Mus musculus with 21 samples.

Results

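The genes of sterol synthesis, of the SREBP system that controls it, and of fatty acid synthesis were followed in pancreatic islets of mice on 3 diets. The group holds 31 genes chosen by name: 18 enzymes that build cholesterol, 6 regulators and sterol carriers, and 7 genes of fatty acid synthesis and desaturation. All 31 were among the 27229 genes with enough reads to test, out of 55536 annotated genes. Islets came from male CBA mice, a common inbred laboratory strain. The diets were a regular diet (RD), a diet high in fat (HFD), and the same fat-rich diet with O304 added (HFD-O304). O304 is a pan-AMPK activator, a compound that switches on AMP-activated protein kinase, the cellular energy sensor, and it was mixed into the food at 0.8 mg per g. Diets began at 10 weeks of age and islets were taken at 20 weeks. Each group had 7 samples, each of 150 islets pooled from 5 mice, so the spread between samples is a spread between pools. The labels name no transgene or deletion in any group. HFD-O304 replicate 1 carries the diet tag HFD in the labels but the title HFD-O304, and it was grouped by its title. Total RNA was sequenced as paired 50-base reads, and 13809266 to 48922569 read pairs per sample were assigned to genes.

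Cholesterol is made from acetyl-CoA. Hmgcs1 and the kinases Mvk and Pmvk act early, Mvd, Idi1 and Fdps make and join isoprene units, Fdft1 makes squalene, Sqle and Lss turn squalene into the first sterol, and the remaining enzymes from Cyp51 to Dhcr7 trim it to cholesterol. SREBP transcription factors, encoded by Srebf1 and Srebf2, wait in the endoplasmic reticulum bound to Scap. Insig proteins hold Scap there when sterols are plentiful, and low sterol lets SREBP travel to the Golgi, where proteases release the active factor. SREBP-2 mainly drives sterol genes and SREBP-1 mainly drives fatty acid genes, with LXR, the sterol-sensing nuclear receptor, and ChREBP, the glucose-responsive factor encoded by Mlxipl, as further inputs on the fatty acid side. Acly makes cytosolic acetyl-CoA, Acaca and Fasn build palmitate from it, Elovl6 lengthens it, the stearoyl-CoA desaturases Scd1 and Scd2 add a double bond, and Me1 supplies NADPH. Activated AMPK is known to phosphorylate and inhibit acetyl-CoA carboxylase, and such control of protein activity is not visible in mRNA counts.

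The genes differed widely in level. Levels were expressed as TPM per length of all annotated exons of a gene, merged. By this measure Acly was the most abundant of the 31 genes, with a median of 789.9 TPM over the 21 samples and a range of 653.6 to 1011. Scd2 followed at 153 TPM, and Insig1 at 68.6 TPM. Among the sterol enzymes Sqle stood highest at 50.3 TPM, and the median over the 18 enzymes was 11.9 TPM. The steps that follow Acly were far lower, with Fasn at 29.1 TPM and Acaca at 3.02 TPM. Merged exons span 5279 bases in Acly, 10947 in Fasn and 17074 in Acaca, and a longer span lowers TPM. Mean normalized counts, which do not use length, were 71630 for Acly, 5232 for Fasn and 877 for Acaca. The ratio of Acly to Fasn in TPM was between 20.6 and 36.5 in all 21 samples. Of the desaturases, Scd2 was the main islet form: the ratio of Scd2 to Scd1 in TPM was 28.7 to 44.2 in RD, 39.9 to 63.1 in HFD and 33.4 to 40.8 in HFD-O304. Srebf1 and Srebf2 were close to each other at 47.9 and 39.9 TPM, with overlapping ranges. Isoforms 1a and 1c of Srebf1 cannot be told apart in counts per gene.

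**Figure D1:**
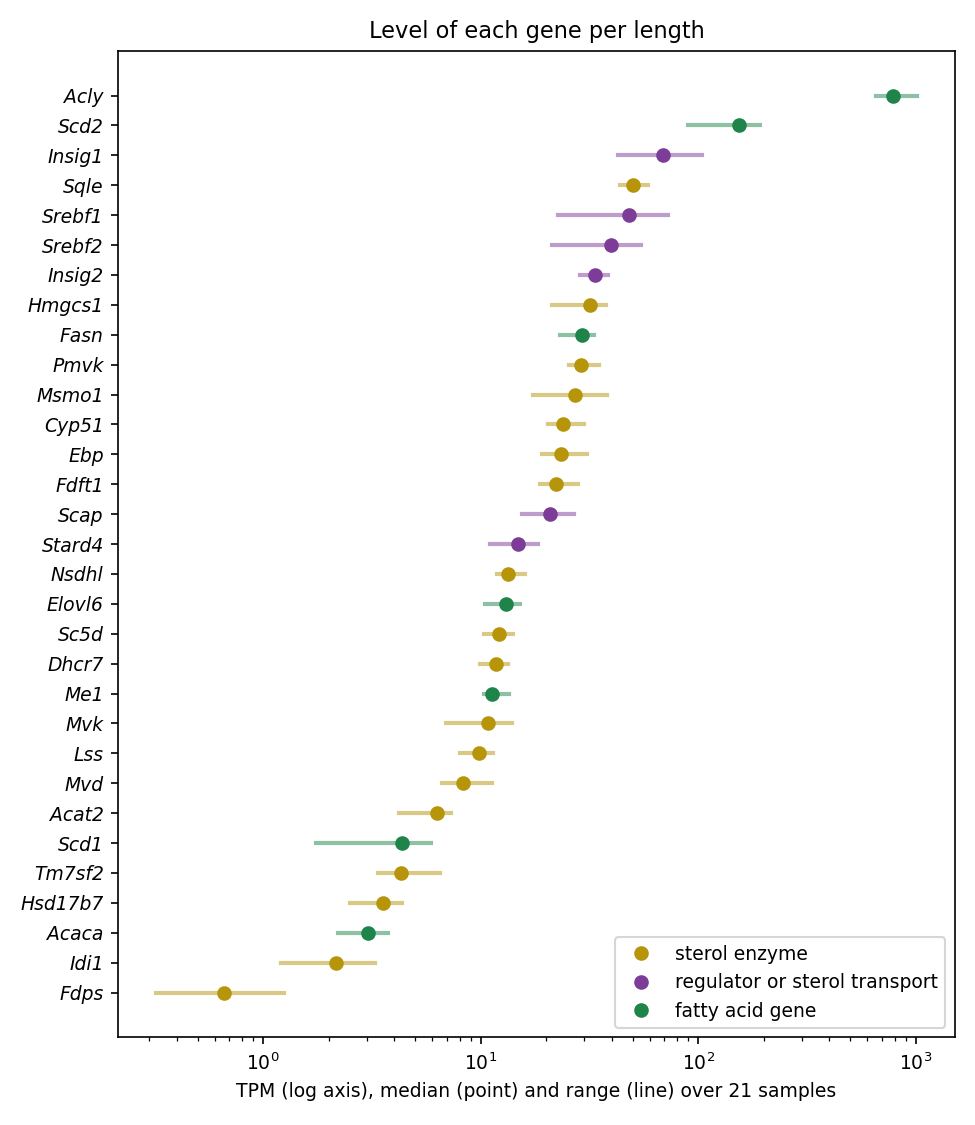
TPM of each of the 31 genes on a log axis, with the median over 21 samples as a point and the full range as a line, coloured by group of genes. Acly lies highest at 789.9 TPM and Fdps lowest at 0.662 TPM.

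Some levels carry limits of measurement. Fdps was listed at a median of only 0.662 TPM. An overlapping gene on the same strand, Gm43738, covers 26.7% of Fdps exon bases, and 15.5% of its 50-base windows also occur in other genes, several of them predicted genes with Gm names. Such windows made up 39.1% of Acat2, 30.4% of Acaca, 28.3% of Me1 and 17.7% of Idi1, and Tm7sf2 shares 12.1% of its exon bases with Vps51. Levels of these 6 genes are therefore uncertain, while Sqle (0.0358%), Ebp (0%) and Dhcr7 (1.37%) had few or no shared windows. Scd1 and Scd2 shared 4.56% and 3.75% of their windows with other genes, including each other.

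High-fat diet was compared with regular diet first. A gene was called when the Benjamini-Hochberg adjusted p of edgeR's quasi-likelihood test over all 27229 genes was under 0.01. By this rule 3.54% of all genes were called between HFD and RD (1.54% lower), or 6.22% of genes averaging 50 normalized counts or more, and 1 of the 31 genes was: Scd1, which was lower. None of the 18 sterol enzymes was called (5 had an unadjusted p under 0.05, and DESeq2 called 2) and none of the 6 regulators and carriers (0 at an unadjusted p under 0.05). Of all 27229 genes 5714 had an unadjusted p under 0.05, and DESeq2 called 6.46%. The median log2 fold change was 0.02 over the sterol enzymes and -0.11 over the fatty acid genes, beside -0.0044 over all genes tested.

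Scd1 makes oleate from stearate. Its normalized counts had a lowest value, median and highest value of 225, 391 and 477 in RD, 156, 201 and 276 in HFD, and 305, 368 and 418 in HFD-O304. RD and HFD overlapped, with 4 of 7 HFD samples below every RD sample. Scd1 was 0.579-fold in HFD relative to RD (log2 fold change -0.79, SE 0.14, adjusted p = 0.000782 by edgeR). In bulk islets fewer cells of a type and less RNA per cell cannot be told apart. Scd1 is abundant in fat cells, and of 6 adipocyte markers only Plin1 and Cidec had enough reads to test; Adipoq and Lep had 1 read each, Retn 2 and Cfd 8 over all samples. The 6 together summed to 1.73 to 42.8 normalized counts in RD samples, 0 to 106.9 in HFD samples and 2.29 to 20.6 in HFD-O304 samples. The sum of 106.9 was that of HFD replicate 7, which also had the highest Scd1 of the HFD samples. With the summed adipocyte markers as a covariate, chosen after seeing the data, the log2 fold change of Scd1 from RD to HFD was -0.77 (adjusted p = 0.000346 by edgeR). With so few marker reads this covariate cannot measure a share of fat cells, and the part of fat cells in the Scd1 result was not tested.

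Scd2, the paralog that islets use most, had 11103, 14224 and 16918 normalized counts (lowest, median, highest) in RD and 9590, 11391 and 12925 in HFD. The groups overlapped and 3 HFD samples lay below every RD sample. Its log2 fold change was -0.32 (SE 0.08) with an adjusted p of 0.0117 by edgeR, short of the threshold. DESeq2 placed it past the threshold, with an adjusted p of 0.00266. Acaca had a log2 fold change of -0.20 (adjusted p = 0.0275 by edgeR), with 6 of 7 HFD samples below every RD sample, while Fasn, Elovl6 and Me1 lay between -0.07 and 0.07.

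The sterol enzymes nearest the threshold pointed the other way from the desaturases. Mvd, the decarboxylase that yields isopentenyl diphosphate, had 203, 255 and 280 normalized counts in RD (lowest, median, highest), 262, 318 and 363 in HFD, and 236, 272 and 298 in HFD-O304. In 6 of 7 HFD samples it exceeded every RD sample, and its log2 fold change was 0.36 (SE 0.09, adjusted p = 0.0137 by edgeR). DESeq2 gave Mvd an adjusted p of 0.00122 and Sqle 0.00555. Sqle and Dhcr7 had log2 fold changes of 0.18 and 0.21 in edgeR, with adjusted p of 0.0335 and 0.0414. The other 15 enzymes had values from -0.16 for Msmo1 to 0.23 for Ebp.

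HFD-O304 was next compared with HFD, which asks what O304 in the high-fat diet changed. In this comparison 11.9% of all genes were called, 5.08% higher and 6.79% lower. Of the 31 genes 5 were called: Scd1 and Scd2 were higher in HFD-O304, and Sqle, Ebp and Dhcr7 were lower. Among the better expressed genes, averaging 50 normalized counts or more, 20.8% were called (11.6% lower), a share that the 31 genes did not exceed. Among the called genes the direction differed by arm. Of the fatty acid genes 2 of 7 were called higher and 0 lower, and of the sterol enzymes 3 of 18 lower and 0 higher. Of the regulators and carriers 0 of 6 were called (3 had an unadjusted p under 0.05, as had 7989 of all 27229 genes). Called or not, log2 fold changes were above 0 in 5 fatty acid genes and below 0 in 2. They were above 0 in 8 sterol enzymes and below 0 in 10. HFD-O304 and HFD did not overlap for 5 of the 31 genes, namely Scd1, Scd2, Elovl6, Sqle and Dhcr7, where 6.17% of all genes did not overlap. That share includes genes with few reads, and it was not computed for the better expressed genes alone.

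**Figure D2:**
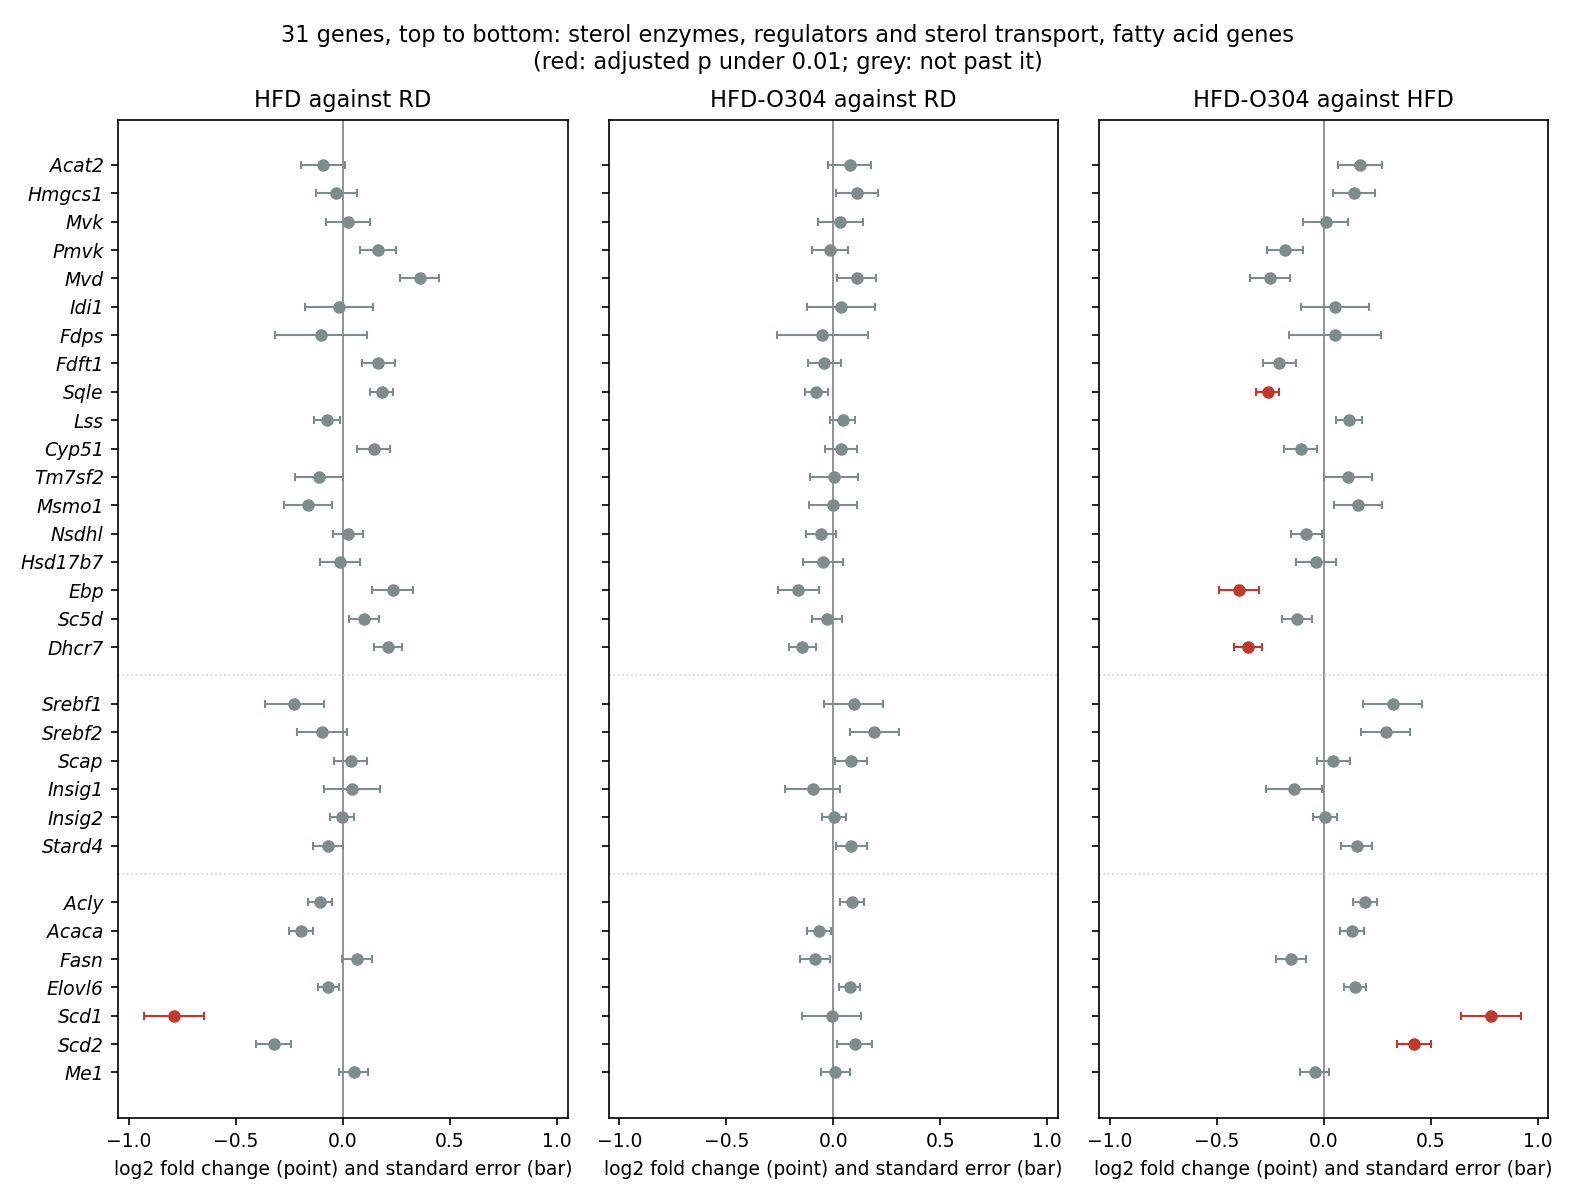
Log2 fold change (point) and standard error (bar) of all 31 genes in the 3 comparisons, with genes past an adjusted p of 0.01 in red. Scd1 at -0.79 is the single red point for HFD against RD, there is none for HFD-O304 against RD, and Scd1, Scd2, Sqle, Ebp and Dhcr7 are red for HFD-O304 against HFD.

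Scd1 and Scd2 lie close together on chromosome 19 (GRCm38 chr19:44394455-44407879 and chr19:44293674-44306864). Scd1 was 1.72-fold higher in HFD-O304 than in HFD (log2 fold change 0.78, SE 0.14, adjusted p = 0.000183 by edgeR), and all 7 HFD-O304 samples lay above every HFD sample. Scd2 had 13887, 15204 and 16716 normalized counts in HFD-O304 (lowest, median, highest). All of these lay above the highest HFD sample, and Scd2 was 1.34-fold higher (log2 fold change 0.42, SE 0.08, adjusted p = 0.000337 by edgeR). Samples numbered 1 to 4 and 5 to 7 come from different runs of library numbers, and the size of the Scd1 difference varied between these sets, with a log2 fold change of 1.03 in replicates 1 to 4 and 0.51 in replicates 5 to 7. Both were past the threshold, and edgeR's test of diet by set called 0 of the 31 genes. At an unadjusted p under 0.05 there were 3 of the 31, Scd1 among them, beside 4.83% of all genes. The smallest adjusted p of the 31 was 0.843 for Msmo1 (edgeR).

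Acly, which turns citrate into acetyl-CoA for both arms, had 63483, 71468 and 79984 normalized counts in RD (lowest, median, highest), 59325, 66580 and 73593 in HFD, and 69732, 75814 and 81347 in HFD-O304. In 6 of 7 HFD-O304 samples it exceeded every HFD sample. The log2 fold change from HFD to HFD-O304 was 0.19 (SE 0.06, adjusted p = 0.0159 by edgeR), short of the threshold of 0.01. It passed that threshold with DESeq2 (adjusted p = 0.00810), with a replicate block (0.00816), with the library set as a covariate (0.00997), without HFD replicate 7 (0.00649) and without HFD-O304 replicate 2 (0.00706). Elovl6, which lengthens palmitate to stearate, the substrate of the desaturases, had 1321, 1340 and 1409 normalized counts in HFD and 1421, 1430 and 1648 in HFD-O304. These groups were adjacent and did not overlap, and the log2 fold change was 0.15 (SE 0.05, adjusted p = 0.0376 by edgeR). Fasn, the enzyme that assembles palmitate, had a log2 fold change of -0.15 (adjusted p = 0.153), Acaca 0.13 (adjusted p = 0.111) and Me1 -0.04 (adjusted p = 0.755).

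On the sterol side 3 enzymes on separate chromosomes were called, Sqle (GRCm38 chr15:59315077-59331192), Ebp (chrX:8185329-8193512) and Dhcr7 (chr7:143823145-143848410). Sqle, the squalene epoxidase, a rate-limiting step of the route, had 4107, 4574 and 5338 normalized counts in RD (lowest, median, highest), 5007, 5178 and 5965 in HFD, and 4242, 4452 and 4546 in HFD-O304. All HFD-O304 samples lay below every HFD sample. Sqle was 0.834-fold in HFD-O304 relative to HFD (log2 fold change -0.26, SE 0.05, adjusted p = 0.000711 by edgeR). Dhcr7, which makes cholesterol in a last step of the route, had 995, 1113 and 1328 normalized counts in RD, 1174, 1301 and 1431 in HFD, and 923, 1034 and 1075 in HFD-O304. HFD and HFD-O304 again did not overlap. Dhcr7 was 0.782-fold in HFD-O304 relative to HFD (log2 fold change -0.35, SE 0.06, adjusted p = 0.000194 by edgeR).

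Ebp, the sterol isomerase that acts shortly before Dhcr7, had 732, 871 and 1150 normalized counts in RD (lowest, median, highest), 904, 1039 and 1312 in HFD, and 715, 812 and 930.1 in HFD-O304. The groups overlapped, with 6 of 7 HFD-O304 samples below every HFD sample. Ebp was 0.760-fold in HFD-O304 relative to HFD (log2 fold change -0.40, SE 0.10, adjusted p = 0.00334 by edgeR). This call rested on single samples: without HFD replicate 1 the adjusted p was 0.0119, and without HFD replicate 4 it was 0.0116. Within replicates 1 to 4 the log2 fold changes of Sqle, Ebp and Dhcr7 were -0.28, -0.47 and -0.39, and within replicates 5 to 7 they were -0.25, -0.31 and -0.33. Of these 6 values only that of Dhcr7 in replicates 5 to 7 was past the threshold (adjusted p = 0.00461 by edgeR).

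**Figure D3:**
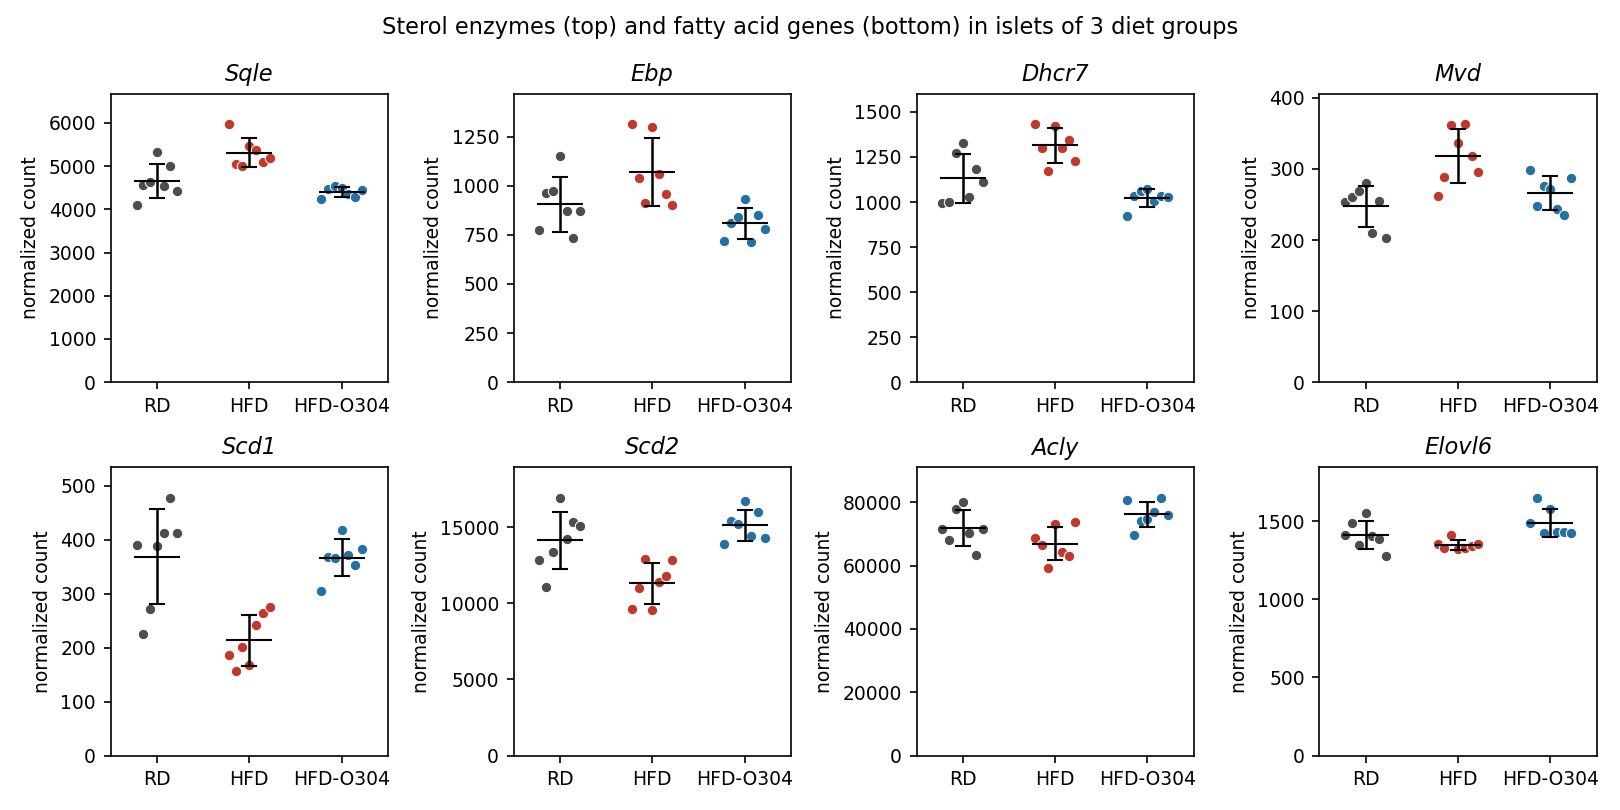
Normalized counts of 4 sterol enzymes (top row) and 4 fatty acid genes (bottom row) in each sample, with a long dash for the mean and a bar for the SD of the 7 samples. For Sqle and Dhcr7 every HFD-O304 sample lies below every HFD sample, and for Scd1, Scd2 and Elovl6 every HFD-O304 sample lies above.

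The route as a whole did not move together. Over the 18 sterol enzymes the median log2 fold change from HFD to HFD-O304 was -0.06, beside 0.03 over all genes tested, with 8 enzymes above 0 and 10 below, while 46.6% of all genes lay below 0. Besides the 3 called enzymes, Mvd (-0.25, adjusted p = 0.0566 by edgeR) and Fdft1 (-0.21, adjusted p = 0.0608) had the lowest values. At the other end stood Acat2 at 0.17, Msmo1 at 0.16 and Hmgcs1 at 0.14. Hmgcs1, a classical SREBP-2 target that commits acetyl units to the route, had 1785, 2378 and 2857 normalized counts in RD, 1822, 2318 and 2832 in HFD, and 2292, 2574 and 2840 in HFD-O304 (lowest, median, highest). These ranges overlapped throughout, and adjusted p was 0.366 or more in each comparison (edgeR).

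Promoter sequences are shown for the called sterol enzymes that had one, and for Hmgcs1 as the sterol enzyme gene that held a sterol response element. RefSeq promoter sequences (assembly GRCm38.p6, 250 bases before to 50 bases after the start site) were matched for 25 of the 31 genes, with none for Fdps, Fdft1, Sqle, Stard4, Scd1 or Scd2. Both strands were searched for a sterol response element (TCACNCCAC), the E-box CACGTG and the NF-Y box CCAAT. The sterol response element was found in 1 of 15 sterol enzyme genes, that of Hmgcs1, and in 1.44% of all 27025 genes with a promoter. The E-box was found in 3 of the 15, Hsd17b7, Sc5d and Dhcr7, and in 8.09% of all genes. The NF-Y box, bound by a factor known to work next to SREBP, was found in 14 of the 15 sterol enzyme genes (93.3%), in 3 of 5 fatty acid genes and in 41.1% of all genes. Of the 3 start sites of Dhcr7 only the second, which holds the E-box and no NF-Y box, is shown. The first holds none of the 3 motifs. The third holds no E-box but NF-Y boxes beginning 85 and 49 bases before the start, through which Dhcr7 counts among the 14. The promoters of Dhcr7, Ebp and Hmgcs1 read as follows, 5′ to 3′ on the strand of the gene, with matches to any of the 3 motifs in capitals. ATTGG is the NF-Y box read on the opposite strand.
Hmgcs1, chr13:119690101-119690400, plus strand, sterol response element beginning 137 bases before the start: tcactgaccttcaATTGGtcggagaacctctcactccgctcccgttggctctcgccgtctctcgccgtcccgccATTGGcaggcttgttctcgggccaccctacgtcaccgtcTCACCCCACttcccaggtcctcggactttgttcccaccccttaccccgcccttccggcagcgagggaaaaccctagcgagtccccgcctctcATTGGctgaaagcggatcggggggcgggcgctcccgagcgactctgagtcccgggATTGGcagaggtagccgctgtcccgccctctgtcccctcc
Dhcr7, second of 3 start sites, chr7:143823149-143823448, plus strand, E-box beginning 164 bases before the start: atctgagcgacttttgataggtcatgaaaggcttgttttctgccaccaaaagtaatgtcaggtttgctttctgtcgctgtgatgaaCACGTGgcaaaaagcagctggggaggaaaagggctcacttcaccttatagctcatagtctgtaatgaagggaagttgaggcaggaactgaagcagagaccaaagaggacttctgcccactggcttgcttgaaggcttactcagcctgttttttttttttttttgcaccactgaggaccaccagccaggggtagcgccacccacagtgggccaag
Ebp, chrX:8193463-8193762, minus strand, NF-Y boxes beginning 170 and 55 bases before the start: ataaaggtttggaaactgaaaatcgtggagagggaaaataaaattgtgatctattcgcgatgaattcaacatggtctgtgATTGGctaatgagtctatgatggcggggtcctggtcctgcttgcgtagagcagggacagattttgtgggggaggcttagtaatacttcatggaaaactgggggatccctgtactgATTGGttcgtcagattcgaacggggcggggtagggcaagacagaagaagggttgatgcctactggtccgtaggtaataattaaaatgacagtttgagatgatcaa
A match describes letters and not a bound site.

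The SREBP machinery itself was not called in any comparison by edgeR or DESeq2. Srebf1 had 3566, 4803 and 5408 normalized counts in RD (lowest, median, highest), 2335, 3800 and 5212 in HFD, and 3650, 4839 and 6409 in HFD-O304. Srebf2 had 3717, 4344 and 5812 in RD, 2812, 4619 and 5710 in HFD, and 4675, 5271 and 6117 in HFD-O304. The groups overlapped widely for both genes. From HFD to HFD-O304 the log2 fold change of Srebf1 was 0.32 (SE 0.14, adjusted p = 0.109 by edgeR) and that of Srebf2 was 0.29 (SE 0.12, adjusted p = 0.0851). From RD to HFD they were -0.23 (adjusted p = 0.377) and -0.10 (adjusted p = 0.718).

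HFD replicate 1 stood apart among these regulators. It was the lowest HFD sample in 5 of the 6 regulators and carriers, including Srebf1, Srebf2, Scap and Insig1. Among the 18 sterol enzymes it was lowest in 6 and highest in 6, Sqle, Ebp and Dhcr7 being among the latter. Without it the log2 fold change from HFD to HFD-O304 was 0.23 for Srebf1 (adjusted p = 0.207 by edgeR) and 0.21 for Srebf2 (adjusted p = 0.155). Within replicates 1 to 4 the log2 fold change of Srebf1 from RD to HFD was -0.45, and within replicates 5 to 7 it was 0.01. Neither was past the threshold.

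Scap, the escort of SREBP, had 2342, 2570 and 2931 normalized counts in RD, 2128, 2788 and 2872 in HFD, and 2260, 2756 and 3124 in HFD-O304 (lowest, median, highest). Insig2 had 1854, 1980 and 2226 in RD, 1816, 1983 and 2172 in HFD, and 1747, 1977 and 2218 in HFD-O304. Both were level across the diets, the log2 fold changes from HFD to HFD-O304 being 0.05 (SE 0.08) for Scap and 0.01 (SE 0.06) for Insig2. Insig1, a retention factor whose own transcription is driven by SREBP, had 2770, 3502 and 5294 in RD, 2432, 3846 and 5155 in HFD, and 3139, 3328 and 3725 in HFD-O304. The HFD-O304 values lay inside the range of the other groups, and Insig1 had a log2 fold change of -0.14 (SE 0.13, adjusted p = 0.544 by edgeR) against HFD. Its coefficient of variation was 23.3% over the RD samples, 23.4% over the HFD samples and 6.98% over the HFD-O304 samples. Stard4, a carrier of cholesterol between membranes, had log2 fold changes of -0.07, 0.09 and 0.16 in the 3 comparisons (HFD against RD, HFD-O304 against RD, HFD-O304 against HFD), none past the threshold.

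**Figure D4:**
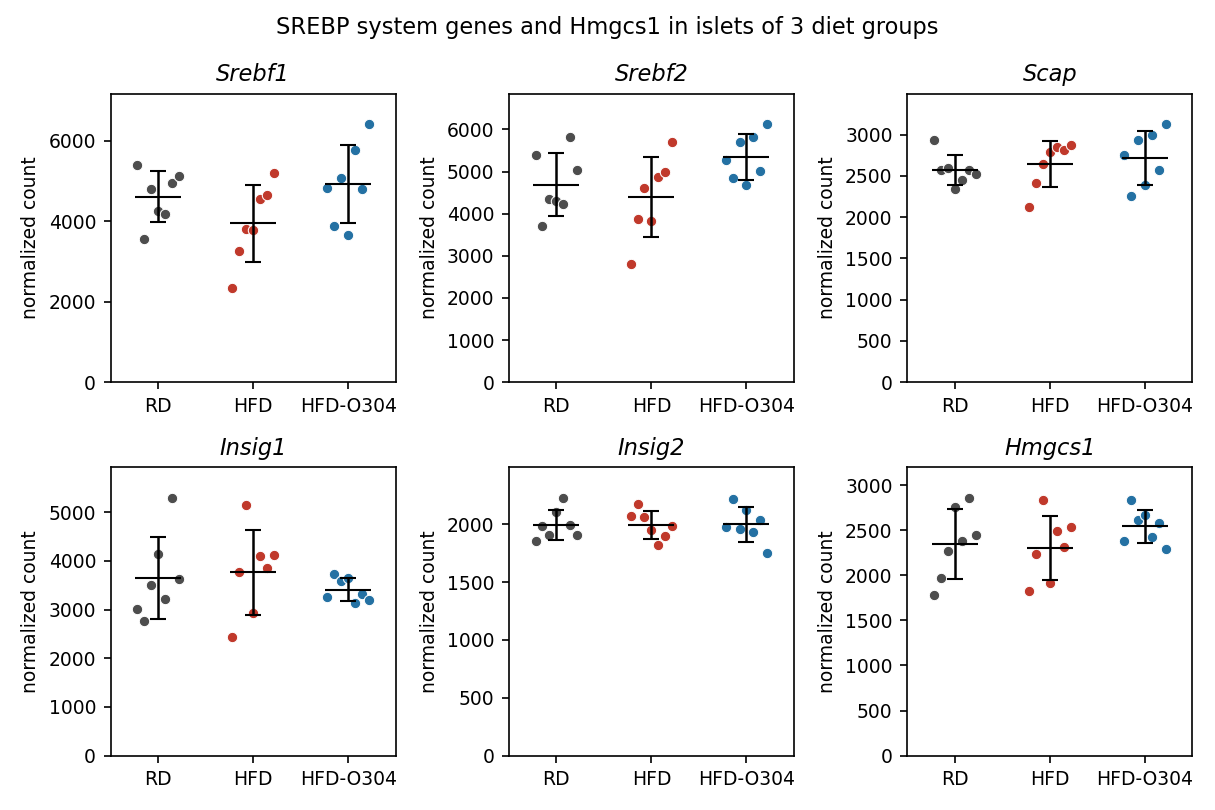
Normalized counts of Srebf1, Srebf2, Scap, Insig1, Insig2 and Hmgcs1 in each sample, with a long dash for the mean and a bar for the SD of the 7 samples. The 3 groups overlap in every panel, and the lowest HFD point for Srebf1 (2335), Srebf2 (2812), Scap (2128) and Insig1 (2432) is the same sample.

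HFD-O304 was last compared with RD, which asks how far islets on the drug diet stood from those on regular diet. Of all genes 1.31% were called (2.53% of genes averaging 50 normalized counts or more), and of the 31 genes 0. DESeq2 also called 0 of the 31. At an unadjusted p under 0.05 by edgeR there was 1 of the 31, Dhcr7, beside 3912 of all 27229 genes. Log2 fold changes ran from -0.16 for Ebp to 0.19 for Srebf2. Scd1 was at -0.01 (SE 0.14), Scd2 at 0.10 (SE 0.08), Sqle at -0.08 (SE 0.05) and Dhcr7 at -0.14 (SE 0.06). The 3 comparisons share samples, so their values are given side by side and are not independent of each other.

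The arms were also compared within each sample. The mean over the genes of an arm of log2 normalized counts, each gene taken relative to its mean over all samples, is used as a description with no test. For the fatty acid genes this mean ran from -0.11 to 0.19 in RD samples, from -0.21 to -0.04 in HFD samples and from 0.03 to 0.12 in HFD-O304 samples. HFD and HFD-O304 samples did not overlap. Without Scd1 and Scd2, a choice made after their values were seen, the mean over the other 5 fatty acid genes ran from -0.02 to 0.13 in RD samples, from -0.06 to 0.00361 in HFD samples and from -0.02 to 0.07 in HFD-O304 samples, so that HFD and HFD-O304 overlapped and the separation rested on the desaturases. For the sterol enzymes it ran from -0.21 to 0.17 in RD, from -0.05 to 0.12 in HFD and from -0.14 to 0.15 in HFD-O304, so all 3 groups overlapped. RD samples spread most on both arms, with an SD of 0.15 for the sterol enzymes and 0.10 for the fatty acid genes, beside 0.10 and 0.03 in HFD-O304.

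**Figure D5:**
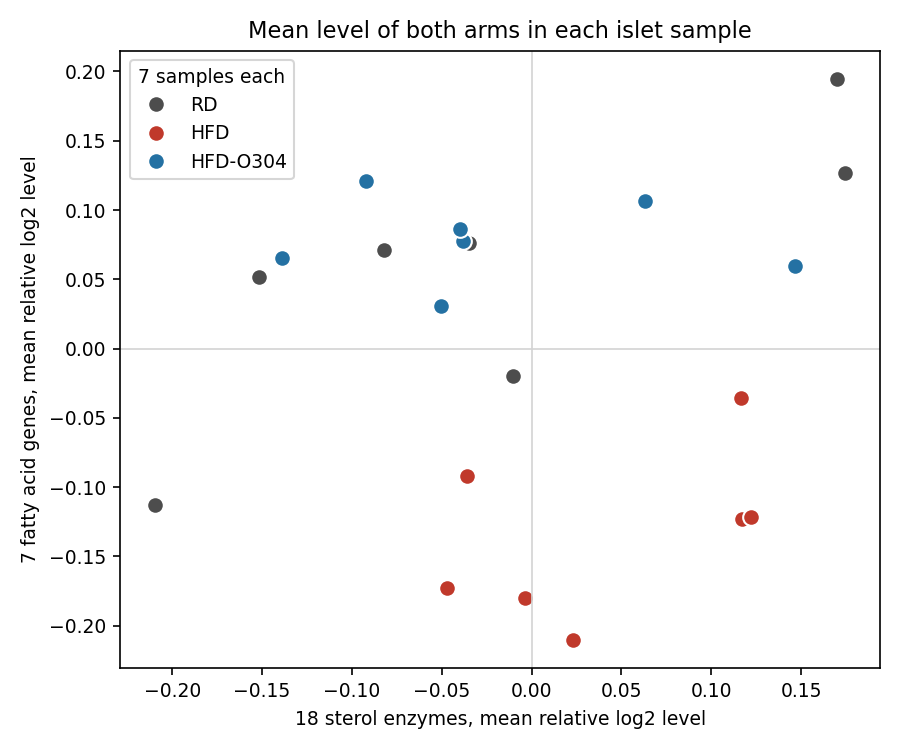
Each point is a sample, placed by the mean relative log2 level of the 18 sterol enzymes (horizontal axis) and of the 7 fatty acid genes (vertical axis). HFD samples lie between -0.21 and -0.04 on the vertical axis and HFD-O304 samples between 0.03 and 0.12, while the groups overlap on the horizontal axis. Without Scd1 and Scd2 the vertical ranges of HFD and HFD-O304 overlap.

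A list of 30 further genes of the same pathways was read beside the 31. Between HFD and RD 3 of the 30 were called, all lower, where 3.54% of all genes and 6.22% of the better expressed genes were called. Soat1, which esterifies cholesterol for storage, had 1371, 1537 and 1614 normalized counts in RD and 1021, 1089 and 1249 in HFD (lowest, median, highest). The groups did not overlap, as was so for 1.35% of all genes, and the log2 fold change was -0.46 (SE 0.06, adjusted p = 4.39e-05 by edgeR). Abca1, the LXR-induced pump that exports cholesterol, had a log2 fold change of -0.42 (SE 0.10, adjusted p = 0.00786), and Elovl5, an elongase of polyunsaturated fatty acids, -0.30 (SE 0.06, adjusted p = 0.00197). Between HFD-O304 and RD 0 of the 30 were called by edgeR (8 at an unadjusted p under 0.05, and DESeq2 called 1). Of all 27229 genes 3912 had an unadjusted p under 0.05, and DESeq2 called 2.67%. Soat1 and Elovl5 stayed below RD, at -0.25 (adjusted p = 0.0182 by edgeR) and -0.20 (adjusted p = 0.0636), while Abca1 was at -0.02. For Elovl5 HFD-O304 and RD did not overlap, as was so for 1.56% of all genes. Neither Soat1 (0.20) nor Elovl5 (0.10) was called between HFD-O304 and HFD.

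Between HFD-O304 and HFD 5 of the 30 were called, 4 higher and 1 lower, where 11.9% of all genes and 20.8% of the better expressed genes were called. Abca1 was higher (log2 fold change 0.40, SE 0.10, adjusted p = 0.00428 by edgeR), with 2961, 4023 and 4831 normalized counts in HFD and 4292, 5227 and 5880 in HFD-O304 (lowest, median, highest), and these ranges overlapped. Also higher were Lpin1, the phosphatidate phosphatase of glyceride synthesis, at 0.37, Mid1ip1, a partner of acetyl-CoA carboxylase, at 0.30, and Erlin2, which helps hold SREBP and degrade sterol-regulated proteins, at 0.25. Erlin2 had no overlap, with 2822 to 3300 normalized counts in HFD and 3402 to 3984 in HFD-O304. The gene that was lower was Pnpla3, a lipase-like target of SREBP-1, at -1.09 (SE 0.26, adjusted p = 0.00344 by edgeR). It had a median of only 37.2 normalized counts in HFD and 16.02 in HFD-O304, and it is named here after its values were seen because its mean was under the minimum of 50 set for named genes. Mlxipl, Nr1h2 and Nr1h3 were not called, though 2 of them lay near the threshold between HFD-O304 and HFD. Mlxipl had a log2 fold change of 0.55 (SE 0.17, adjusted p = 0.0192 by edgeR), with 5 HFD-O304 samples above every HFD sample. Nr1h3 had -0.41 (SE 0.11, adjusted p = 0.0102), with 5 HFD-O304 samples below every HFD sample. Nr1h2 had 0.31 (SE 0.14, adjusted p = 0.123).

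Other cell markers moved with the diets. Proliferation markers were called in 6 of 6 for both HFD comparisons, higher in HFD than in RD and lower in HFD-O304 than in HFD. They summed to 601 to 975 normalized counts in RD, 744 to 3666 in HFD and 311 to 682 in HFD-O304. The sum of 744 was that of HFD replicate 7, inside the RD range, where the next HFD sample had 1555. Without HFD replicate 7, edgeR called 5.89% of all genes between HFD and RD, beside 3.54% with it. With the summed proliferation markers as a covariate, chosen after seeing the data, edgeR called 0 of the 31 genes in any comparison (at an unadjusted p under 0.05 there were 4 for HFD against RD, 0 for HFD-O304 against RD and 3 for HFD-O304 against HFD). That covariate moves with the groups and left 3 of all genes called between HFD and RD and 32 between HFD-O304 and HFD. With it Scd1 had log2 fold changes of -0.45 and 0.25 in these comparisons and Scd2 had -0.26 and 0.32, while from HFD to HFD-O304 Sqle had -0.13, Dhcr7 -0.21 and Ebp -0.03. The alpha cell markers Gcg and Irx2 were lower in HFD than in RD (log2 fold change of Gcg -1.01) and higher in HFD-O304 than in HFD (log2 fold change of Gcg 1.21), while Ttr was called the opposite way. Of 3 delta cell markers 2 were lower in HFD than in RD and 3 were higher in HFD-O304 than in HFD, while 3 of 5 duct markers were higher and 2 of 5 endothelial and 3 of 5 fibroblast and stellate markers were lower in HFD-O304 than in HFD. Of 7 beta cell markers, Iapp was higher in HFD than in RD (log2 fold change 0.41). Ins1, Ins2 and Iapp were lower in HFD-O304 than in HFD (log2 fold changes -0.20, -0.23 and -0.60) and Ucn3 was higher (0.52). Mafa (0.41) and Nkx6-1 (0.20) lay above 0 and G6pc2 (-0.07) below, none of them called. The 7 summed to 10142831 to 12280062 normalized counts in RD samples, 11774671 to 13755955 in HFD samples and 9344828 to 11097182 in HFD-O304 samples, without overlap between the HFD and HFD-O304 samples. Ins2, Ins1 and Iapp made up most of this sum, with mean normalized counts of 7191969, 2628566 and 1256485. Mafa, Nkx6-1, Ucn3 and G6pc2 had means of 9624, 11677, 19596 and 108749. The mean relative log2 level of the 7, which weighs each marker equally, overlapped between HFD and HFD-O304 samples. It ran from -0.28 to 0.16 in HFD and from -0.10 to 0.06 in HFD-O304. The part of the beta, alpha, delta, duct, endothelial and fibroblast markers in the results was not tested. Exocrine acinar markers summed to 438 to 316484 normalized counts, with 0 of 12 called by edgeR in any comparison (1 at an unadjusted p under 0.05, between HFD-O304 and RD).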

How the data were processed

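Islet RNA libraries (TruSeq) were sequenced and, per the labels and the study's methods, checked with FastQC and aligned with STAR to GRCm38 with Ensembl release 96 (tool versions not given in the sources used here). The deposited values are STAR gene counts, whole numbers of read pairs with no normalization by the authors, in columns for unstranded counting and for each strand. The column for the second strand was used because it held 28.8 to 36.3 times the reads of the other. All 55536 gene IDs matched the annotation.

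The 31 genes and all other lists were chosen with earlier results of these data known. A gene entered the tests when its reads summed to 10 or more over all 21 samples. Tests used edgeR 4.0.16 (TMM, quasi-likelihood, R 4.3.3), all 3 groups in 1 fit, and genes were called at a Benjamini-Hochberg adjusted p under 0.01. Normalized counts are counts divided by DESeq2 1.42.0 size factors, and TPM used the exon length of each gene. Named in full were the called genes, the 5 genes of the SREBP machinery and the smallest adjusted p up to 12 genes, and up to 6 called pathway genes averaging 50 normalized counts or more. The procedure was tested on simulated data, and a gene that was not called is not shown to be unchanged. No samples looked like copies of each other. Alternatives were DESeq2, other filters and size factors, unstranded counts, 2 groups at a time, a replicate block, the library set, marker covariates, a threshold of 0.05 and leaving out each sample. Some genes and sequences are not reported here.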

Additional observations from a re-analysis of the deposited data

Results flagged for a closer look

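Of 93 combinations of gene and diet, 3 had a sample whose gap to its nearest neighbour exceeded 0.568 of the range of the 7 samples, and chance flags about 1 in 20. Fdps stood at 88.8 normalized counts in HFD-O304 replicate 2, where the next sample had 51.1 and the lowest 29.4, and that library was also the shallowest, with 13809266 read pairs on genes. The same sample was the highest HFD-O304 sample in 9 of the 18 sterol enzymes, whose mean relative log2 level in it was 0.15. The reason for the high Fdps value was not tested. Fdft1 stood at 2036 normalized counts in HFD replicate 3, where the next sample had 1778 and the lowest 1617. Elovl6 stood at 1409 normalized counts in HFD replicate 3, where the next sample had 1353 and the lowest 1321.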

How the results depend on the processing

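No called value of the 31 genes turned direction under any alternative, while 192 of 3255 values changed sign without being called in either setting. The medians over each arm moved by less than the spread between samples (that of the sterol enzymes between HFD-O304 and HFD ran from -0.17 to 0.01). Counts moved more. Between HFD and RD 1 of the 31 genes was called (0 sterol enzymes, 1 fatty acid gene), and 3 of the 30 further pathway genes. DESeq2 called 5 of the 31 (2 sterol enzymes, 3 fatty acid genes) and 5 of the 30. It called 6.46% of all genes, where edgeR called 3.54%. Without a filter on low counts 2 were called (2 fatty acid genes), with filterByExpr 2 (1 sterol enzyme), with the library set as a covariate 3 (1 sterol enzyme, 2 fatty acid genes), and with the proliferation markers, chosen as a covariate after seeing the data, 0 of the 31 (0 fatty acid genes) and 0 of the 30. Of all genes tested in each, these settings called 2.68%, 6.40%, 5.92% and 0.0110%, in that order. An adjusted p under 0.05 gave 6 of the 31 (3 sterol enzymes, 3 fatty acid genes) and 5 of the 30, and 1 of the 30 was called with only the 2 groups compared and within either library set. Of all genes 7.89% were called at 0.05 and 2.44% with only the 2 groups. Within replicates 1 to 4 the share was 2.25%, and within replicates 5 to 7 it was 1.25%. Leaving out 1 sample gave 1 to 2 of the 31 (0 to 1 sterol enzyme, 1 to 2 fatty acid genes): Scd2 joined without RD replicate 2, HFD replicate 3 or HFD replicate 7, Sqle without RD replicate 4, and Mvd without HFD replicate 1. These fits called from 2.18% (without RD replicate 7) to 5.89% (without HFD replicate 7) of all genes.

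Between HFD-O304 and HFD 5 of the 31 were called (3 sterol enzymes, 2 fatty acid genes), and 5 of the 30. Within replicates 1 to 4 the numbers were 2 (0 sterol enzymes) and 0 of the 30, and within replicates 5 to 7 they were 3 (1 sterol enzyme) and 1 of the 30, with fewer samples. Of all genes these sets called 7.99% and 5.95%, beside 11.9% with all samples. With the proliferation covariate 0 of the 31 were called (0 sterol enzymes, 0 fatty acid genes) and 0 of the 30, where 0.118% of all genes were called. Of the 30, DESeq2 called 8, the fit of only the 2 groups 2, the library set covariate 8 and a threshold of 0.05 called 10, at which 4 fatty acid genes passed. In that order these settings called 14.9%, 10.9%, 13.9% and 18.9% of all genes. Leaving out 1 sample gave 4 to 6 of the 31 and 2 to 7 of the 30, with 2 without HFD replicate 4, HFD replicate 5 or HFD-O304 replicate 7 and 3 without HFD replicate 2, HFD replicate 6 or HFD-O304 replicates 1, 5 or 6. These fits called from 9.75% (without HFD replicate 4) to 13.2% (without HFD replicate 7) of all genes. Between HFD-O304 and RD 0 of the 30 were called, with 1 by DESeq2, 1 at 0.05, and 0 to 1 when leaving out samples (1 without HFD-O304 replicate 4). The test of diet by library set called 0 genes, and 1 of all genes with unstranded counts. The causes of these shifts were not tested.

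Groups share replicate numbers. Samples were treated as sharing only a number, since deviations of same-numbered samples correlated over 0.1 in 4, 6 and 5 of 7 pairs and not in every pair. The mean correlations were still above 0, at 0.20 (HFD and RD), 0.29 (HFD-O304 and RD) and 0.13 (HFD-O304 and HFD). A sample correlated best with its own number in 16 of 42 cases, where 6 would be met if the numbers carried nothing. This is a hint of a link between same-numbered samples, from the data and not from the design. Same-numbered samples also come from the same library set, and the expected 6 does not allow for that. The part of the library set in these correlations and matches was not tested. With the replicate number as a block, 2 of the 31 were called between HFD and RD (2 fatty acid genes), and 9 of the 30 between HFD-O304 and HFD. Of all genes the block called 5.79% and 13.8% in these comparisons, beside 3.54% and 11.9% without it. The fit without the block thus called fewer genes. Depth limits Fdps, which had 22.96 to 88.8 normalized counts in a sample, more than it limits the other genes.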
